A study of Homo sapiens with 4 samples.

Results

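Keratins, claudins and desmosome genes encode the filaments and junctions that hold epithelial cells together. They were taken here by symbol as the 92 genes of the tables named KRT with a number, CLDN with a number, DSC1 to DSC3, DSG1 to DSG4, DSP, PKP1 to PKP4 or EPCAM, out of 60675 genes. The 92 comprised 55 keratin genes, 24 claudin genes, 7 desmosomal cadherin genes, 4 plakophilin genes, the desmoplakin gene DSP and EPCAM.

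RNA sequencing was done on poly(A) RNA of MM134 cells, a lobular breast cancer line. HER2 L755S cells (2 libraries) carried a kinase domain substitution in HER2, the receptor encoded by ERBB2, and HER2 WT cells (2 libraries) carried the wild-type form. Both lines had been fed phenol red free medium with 5% charcoal-stripped serum, which withdraws estrogen, for 7 days after growth in full serum to 70% confluence. How HER2 was altered or introduced, whether a line is 1 clone, and whether its 2 libraries came from separate cultures are not stated by the labels. P-values therefore measure the spread between libraries, which may be technical.

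Keratins form filaments only as pairs of a type I and a type II chain. KRT8, KRT18, KRT19 and KRT7 are the keratins of simple and luminal breast epithelium, KRT5, KRT14 and KRT17 those of basal cells, and KRT81, KRT83 and KRT86 those of hair. Desmosomes join these filaments to the membrane: the cadherins (desmogleins and desmocollins) bind the next cell, plakophilins and plakoglobin bind their tails, and desmoplakin binds the keratin. Claudins are the membrane proteins that seal tight junctions, and EPCAM is an adhesion protein that binds CLDN7. Lobular carcinomas typically lose E-cadherin, the adhesion protein of the adherens junction.

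ERBB2 itself stood at 864 and 390 TPM in HER2 L755S 1 and 2 and at 671 and 820 TPM in HER2 WT 1 and 2, which does not tell the alleles apart. Total expected counts ran from 27423259 to 31088398 per library. Mitochondrial transcripts took 4.03% and 13.5% of counts in HER2 L755S 1 and 2, and 4.395% and 8.83% in HER2 WT 1 and 2, so that TPM values of nuclear genes are lowered in the number 2 libraries. The 10 listed immediate early, heat shock and stress genes summed to 1541 and 741 TPM in HER2 L755S 1 and 2 and to 1681 and 840 TPM in HER2 WT 1 and 2. These values were lower in number 2 of both lines, and their part in the results below was not tested. Each line difference is accompanied by those of the libraries that share a number: pair 1 is HER2 L755S 1 minus HER2 WT 1, and pair 2 is HER2 L755S 2 minus HER2 WT 2. Luminal markers outside the members were present: 10 of 11 reached 1 TPM in every library, led by the transcription factor genes XBP1 and GATA3. XBP1 averaged 1814 ± 514 TPM in HER2 L755S cells and 1305 ± 13.7 TPM in HER2 WT cells, and GATA3 422 ± 71.9 and 364 ± 68.2 TPM (SD, n = 2 each). Of the same list ESR1, the estrogen receptor gene, ran the other way at 14.1 and 20.4 TPM in HER2 L755S, against 38.5 and 59.9 TPM in HER2 WT libraries (log2 -1.29, SE 0.38, edgeR adjusted p = 0.15). MUC1, a mucin gene of luminal cells, had 1.16 and 0.18 TPM in HER2 L755S, against 7.39 and 1.90 TPM in HER2 WT libraries (log2 -3.18, SE 0.82, edgeR adjusted p = 0.088). CDH1, the E-cadherin gene, was at 7.99 and 4.37 TPM in HER2 L755S 1 and 2 and at 7.35 and 9.01 TPM in HER2 WT 1 and 2.

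Of the 92 genes, 21 had at least 1 TPM in every library, 24 had it in at least 1 library, and 27 had no count in any. A count of 0 allows up to 3 counts, which is 0.0965 to 0.109 CPM (counts scaled to library size) in these libraries, counting error only. The 21 were 9 keratins, 5 claudins, 2 desmosomal cadherins, 3 plakophilins, DSP and EPCAM. Just inside the limit were KRT86, with a lowest value of 1.31 TPM, and CLDN15, with 1.45 TPM. Just outside were KRT81, with a lowest value of 0.97 TPM, and CLDN9, with 0.92 TPM.

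**Figure D1:**
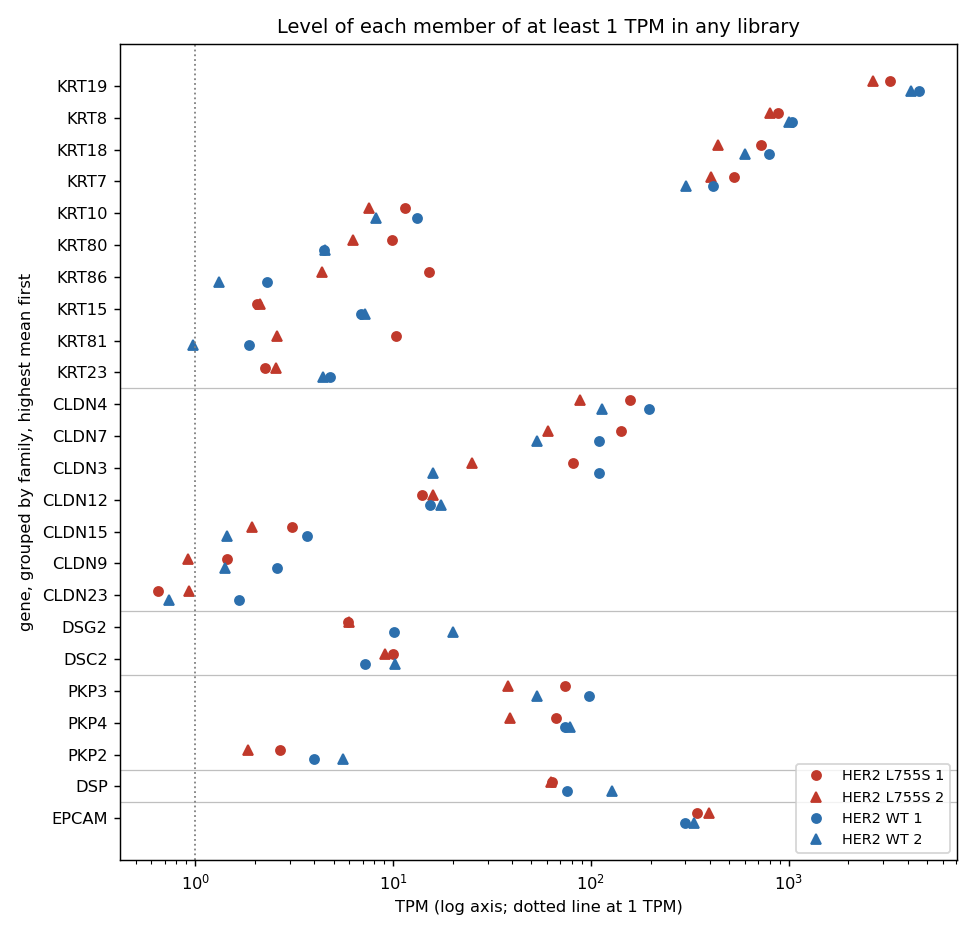
TPM on a log axis for the 24 genes of at least 1 TPM in at least 1 library, by family, with circles for number 1 and triangles for number 2 libraries, HER2 L755S in red above HER2 WT in blue. KRT19 lies between 2674 and 4574 TPM in all 4 libraries, the HER2 L755S points of KRT86 lie above those of HER2 WT, and those of KRT15 below.

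Promoter windows from RefSeq (GRCh38.p14) matched 62 of the 92 members by symbol. They are shown to set expressed members beside members with few or no counts. The 250 bases before the start were searched on both strands for 5 motifs: TATAAA (the TATA box), GGGCGG (the GC box), TGANTCA (the AP-1 site), AACCNGTT (a grainyhead site) and the full palindrome of the estrogen response element. A member counted when any of its windows held the motif (76 windows for 62 members), whereas shares over all genes are per window. Of the 21 members of at least 1 TPM in every library, 11 had a window, and KRT19, KRT18, KRT7 and EPCAM had none. The GC box was in 8 of these 11, in 10 of the 51 other members with a window and in 42.6% of 35116 windows of all genes. The TATA box was in 1 of the 11, in 21 of the 51 and in 10.7% of all windows. The AP-1 letters were in 2 of the 11 and 2 of the 51 (6.57% of all windows), those of grainyhead in 0 and 1 (1.49%), and those of the estrogen response element in no member (0.04%).

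The desmogleins DSG2 and DSG3 lie in the same gene cluster. DSG2 was expressed, and DSG3 had at most 2.93 counts in any library. Capitals mark motif letters in the windows, 5′ to 3′. The DSG2 window is chr18:31497927-31498176 (plus strand) and the DSG3 window chr18:31447491-31447740 (plus strand).
DSG2: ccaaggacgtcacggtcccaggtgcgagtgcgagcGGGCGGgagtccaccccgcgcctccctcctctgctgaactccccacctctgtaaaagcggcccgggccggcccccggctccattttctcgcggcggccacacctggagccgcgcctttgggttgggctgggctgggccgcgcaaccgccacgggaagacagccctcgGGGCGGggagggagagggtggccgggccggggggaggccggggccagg
DSG3: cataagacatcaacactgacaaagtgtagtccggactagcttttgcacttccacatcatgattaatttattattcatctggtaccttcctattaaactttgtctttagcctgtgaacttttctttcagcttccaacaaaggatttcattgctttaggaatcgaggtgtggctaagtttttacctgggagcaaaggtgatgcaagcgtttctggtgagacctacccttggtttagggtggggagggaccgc
The DSG2 window holds the GC box at 2 places and is 75.2% G or C, whereas that of DSG3 holds none of the 5 motifs and is 42.8% G or C. The windows use RefSeq starts. In GENCODE 29 DSG2 starts at 31498043, so part of its window, with the second GC box, lies inside the annotated gene.

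CLDN3 and CLDN4 are shown because they lie near each other on chromosome 7 and were both lower in number 2 libraries. The CLDN3 window is chr7:73770271-73770520 (minus strand) and the CLDN4 window chr7:73830746-73830995 (plus strand).
CLDN3: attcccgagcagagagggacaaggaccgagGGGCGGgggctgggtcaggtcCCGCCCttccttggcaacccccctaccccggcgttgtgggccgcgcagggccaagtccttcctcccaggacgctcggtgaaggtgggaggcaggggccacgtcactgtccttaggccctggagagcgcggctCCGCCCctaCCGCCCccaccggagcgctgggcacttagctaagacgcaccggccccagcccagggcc
CLDN4: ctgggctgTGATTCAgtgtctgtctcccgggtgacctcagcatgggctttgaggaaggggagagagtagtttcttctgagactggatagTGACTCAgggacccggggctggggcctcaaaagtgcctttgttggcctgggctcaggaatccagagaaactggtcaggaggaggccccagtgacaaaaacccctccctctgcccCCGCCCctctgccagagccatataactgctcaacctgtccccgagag
CLDN3 holds the GC box at 4 places. CLDN4 holds it once, with 2 places of the AP-1 letters, which the CLDN3 window does not have. The CLDN4 span in GENCODE 29 starts at 73799542, so the CLDN4 window lies inside that span.

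KRT10 and KRT71 are shown because a TATA box at nearly the same place went with different levels. The KRT10 window is chr17:40822615-40822864 (minus strand) and the KRT71 window chr12:52553146-52553395 (minus strand).
KRT10: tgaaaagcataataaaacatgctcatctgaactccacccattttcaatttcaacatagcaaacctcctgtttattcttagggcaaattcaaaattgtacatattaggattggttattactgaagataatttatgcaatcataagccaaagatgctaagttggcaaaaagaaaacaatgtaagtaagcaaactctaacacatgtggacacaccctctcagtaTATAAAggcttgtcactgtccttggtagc
KRT71: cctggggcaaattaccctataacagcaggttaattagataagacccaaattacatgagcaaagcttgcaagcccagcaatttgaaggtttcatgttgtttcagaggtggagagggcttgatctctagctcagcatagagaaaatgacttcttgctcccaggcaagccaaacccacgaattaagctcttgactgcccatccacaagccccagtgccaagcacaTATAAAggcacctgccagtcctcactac
KRT10, with the letters starting 29 bases before the start, ranged from 7.57 to 13.1 TPM. KRT71, an inner root sheath keratin with the letters starting 28 bases before the start, had 2 counts in HER2 WT 1 and 0 elsewhere. These matches describe letters, not bound sites.

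In bulk RNA, fewer cells with a gene and less of its RNA per cell cannot be told apart. KRT19, the smallest type I keratin of luminal cells, was the most abundant member. It stood at 3240 and 2674 TPM in HER2 L755S 1 and 2, against 4574 and 4146 TPM in HER2 WT 1 and 2. Both HER2 L755S libraries were below both HER2 WT libraries, but the difference did not pass the test: the log2 fold change was -0.36 (SE 0.28, pairs -0.46 and -0.24, edgeR adjusted p = 0.86). KRT8, the type II partner of KRT18, followed at 882 and 804 TPM in HER2 L755S and 1039 and 998 TPM in HER2 WT libraries (log2 -0.03, SE 0.28, edgeR adjusted p = 1). KRT18, its type I partner, had 720 and 439 TPM in HER2 L755S and 797 and 599 TPM in HER2 WT libraries (log2 -0.12, SE 0.31). KRT7, the type II keratin of glandular ducts, had 529 and 404 TPM in HER2 L755S, against 414 and 303 TPM in HER2 WT libraries. In TPM the lines of KRT7 overlap, while in TMM-scaled CPM both HER2 L755S libraries (571 and 518) were above both HER2 WT libraries (433 and 329). The log2 fold change of KRT7 was 0.52 (SE 0.30, pairs 0.40 and 0.66, edgeR adjusted p = 0.7).

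These 4 genes held at least 99% of all keratin TPM in every library. Their proportions were not equal in the lines. KRT7 took 9.755% and 9.30% of keratin TPM in HER2 L755S, against 6.03% and 4.98% in HER2 WT libraries, and KRT19 took 59.7% and 61.5%, against 66.7% and 68.3%. Summed type I keratins exceeded summed type II keratins 2.75 and 2.56 times in HER2 L755S 1 and 2, against 3.69 and 3.64 times in HER2 WT 1 and 2. For the 3 measures the lines did not overlap, and with 2 libraries a line no permutation test can pass 0.05. Summed type II keratins were 1447 and 1223 TPM in HER2 L755S and 1462 and 1308 TPM in HER2 WT libraries, whereas type I keratins were 3977 and 3125 TPM, against 5397 and 4766 TPM. These sums are in TPM, which mitochondrial transcripts lower in number 2 libraries, most in HER2 L755S 2. In TMM-scaled CPM the log2 difference of KRT8 was -0.21 in pair 1 and 0.15 in pair 2, and summed CPM were not compared. KRT8 and KRT18 share sequence with other genes. Of the 50-base windows of the longest transcript, 22.1% for KRT8 and 33.4% for KRT18 also occur in transcripts of other genes. For KRT18 the gene sharing the most windows was KRT8 (15.99%). The annotated spans of KRT8 and KRT18 overlap on opposite strands, and 330 of the 681 shared KRT18 windows matched the opposite strand. The pseudogenes named for KRT8 and KRT18 received 0.243% to 0.887% of the counts of gene and pseudogenes together. These counts do not show how reads were split between KRT8 and KRT18, which was not tested.

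**Figure D2:**
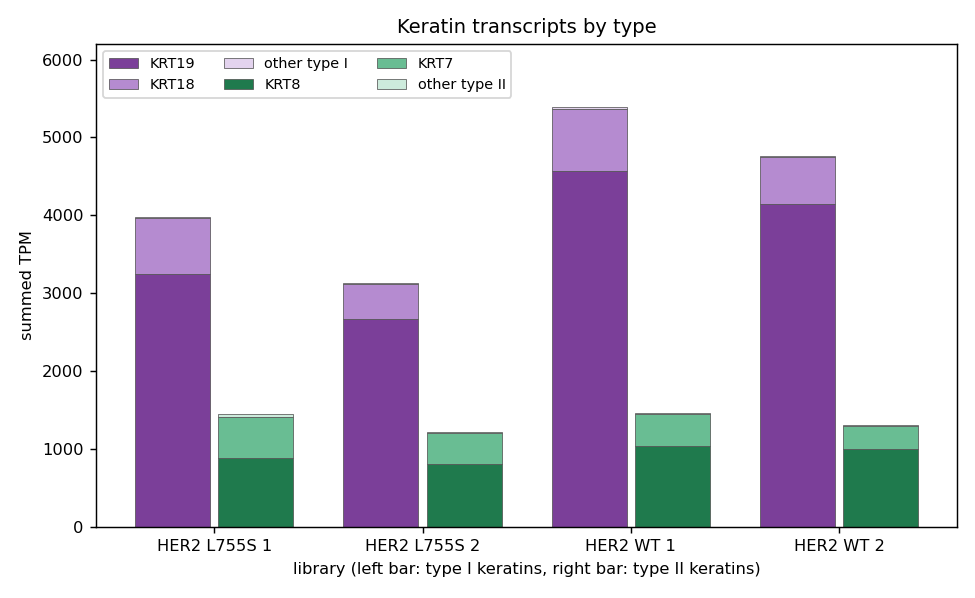
Summed TPM of type I keratins (left bar of each library, purple) and type II keratins (right bar, green), stacked by gene. In TPM, not scaled for the mitochondrial share, the type II bars differ little between the lines. The type I bars are lower in the HER2 L755S libraries (3977 and 3125 TPM) than in the HER2 WT libraries (5397 and 4766 TPM).

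KRT86, a type II hair keratin, was the 1 member called between the lines, of 30 tested, beside 1.69% called in either direction over 16538 tested genes. It had 646.37 and 209 expected counts in HER2 L755S 1 and 2, against 106.11 and 56 in HER2 WT 1 and 2, or 15.2 and 4.39 TPM, against 2.31 and 1.31 TPM. The lines did not overlap, and HER2 L755S 1 was far above HER2 L755S 2. The log2 fold change was 2.54 (SE 0.52, pairs 2.75 and 2.07), with an adjusted p of 0.037 (edgeR, Benjamini-Hochberg). The call rests on HER2 L755S 1: without it the log2 fold change was 1.64 and the adjusted p 0.083. It also missed the threshold with no scaling (adjusted p = 0.052) and in limma on log2(TPM + 1) (adjusted p = 0.15), within a range from 9.4e-07 over the alternatives.

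KRT81, the neighbouring hair keratin, ran with KRT86. It stood at 10.35 and 2.58 TPM in HER2 L755S 1 and 2, against 1.86 and 0.97 TPM in HER2 WT 1 and 2, again with no overlap and with HER2 L755S 1 the highest. Its log2 fold change of 2.28 (SE 0.58, pairs 2.50 and 1.72) did not pass the test (edgeR adjusted p = 0.082). It was called without HER2 L755S 2 (2.88, adjusted p = 2.3e-05) or without HER2 WT 1 (2.79, adjusted p = 0.0015), and by DESeq2 (adjusted p = 0.0041). Without HER2 L755S 1 its log2 fold change was 1.23 (adjusted p = 0.39), the highest adjusted p of the alternatives. KRT83, the third hair keratin of the locus, had 13 and 4 counts in HER2 L755S and 9 and 4 in HER2 WT libraries, too few to test.

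The hair keratins share sequence, so the split of reads between them is uncertain. Of the 2168 windows of 50 bases in the longest KRT86 transcript, 40.5% also occur in transcripts of other genes and 33.3% in KRT81. For KRT81 these shares were 44.6% and, in KRT86, 38.4%. KRT81 lies inside the annotated span of KRT86 on the opposite strand, but the exons of their listed transcripts have 0 bases in common. Counts of KRT81, KRT83 and KRT86 were therefore also summed before the fit, which gave 1061 and 325 counts in HER2 L755S 1 and 2, against 193 and 98 in HER2 WT 1 and 2. The log2 fold change of the sum was 2.39 (SE 0.52, pairs 2.60 and 1.90, edgeR adjusted p = 0.046).

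KRT86 (ENSG00000170442, GRCh38 chromosome 12, 52249300 to 52309163) lies in the type II keratin cluster, where the 27 keratin genes of the symbol rule on this chromosome run from 52168996 to 52952901. Of the 6 tested keratins there, those at the low-coordinate end had positive log2 fold changes: 0.97 for KRT80, 0.52 for KRT7, 2.54 for KRT86 and 2.28 for KRT81. KRT8 and KRT18, at the other end, had -0.03 and -0.12. The 3 other genes tested inside the cluster also had positive values, none of them called. They are not separate from the keratins. KRT89P is by name a keratin pseudogene, the span of LINC00592 overlaps that of KRT80, and RP3-416H24.1 lies within that of KRT7. Whether they received reads of these keratins was not tested. With 500000 bases added at each side, the 31 other tested genes had a median of -0.05, 13 positive, with none called in either direction.

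**Figure D3:**
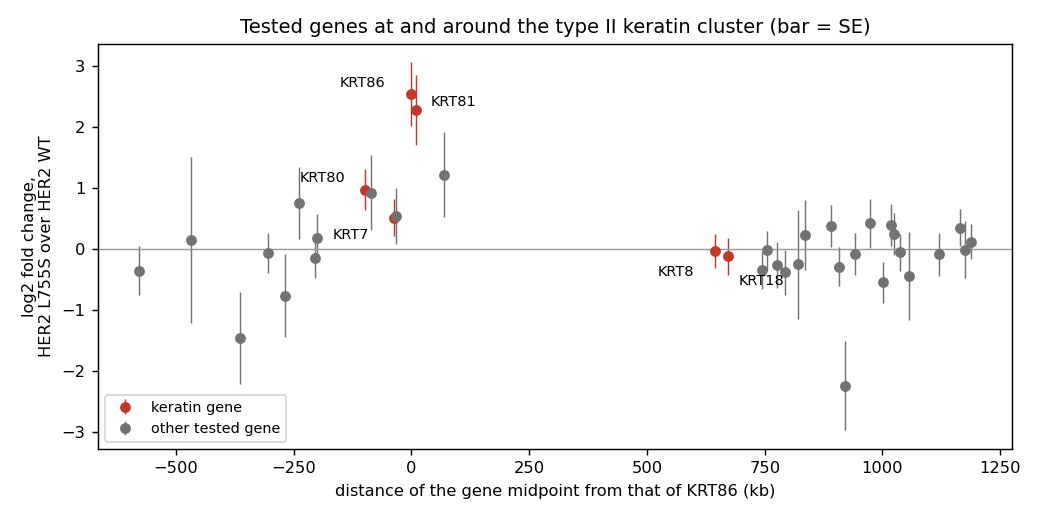
Log2 fold change (HER2 L755S over HER2 WT, bar = SE) of each tested gene at and around the type II keratin cluster, against the distance of its midpoint from that of KRT86 in kb. KRT86 and KRT81 stand at 2.54 and 2.28, and KRT8 and KRT18, at the far end of the cluster, lie near 0.

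KRT80, a type II keratin of many epithelia, stood at 9.87 and 6.30 TPM in HER2 L755S, against 4.48 and 4.54 TPM in HER2 WT libraries. Both HER2 L755S libraries were higher (log2 0.97, SE 0.34, pairs 1.15 and 0.78), and the test was not passed (edgeR adjusted p = 0.24). KRT15, a type I keratin of basal and progenitor cells, ran the other way with 2.04 and 2.13 TPM in HER2 L755S, against 6.84 and 7.17 TPM in HER2 WT libraries. The 2 libraries of each line lay close together, yet at 59.06 to 248.69 counts the log2 fold change of -1.52 (SE 0.41, pairs -1.42 and -1.63) did not pass (edgeR adjusted p = 0.10). DESeq2 called it (adjusted p = 0.031), and over the alternatives the adjusted p ran from 0.0037 to 0.36. KRT23, another type I keratin, had 2.25 and 2.56 TPM in HER2 L755S, against 4.80 and 4.43 TPM in HER2 WT libraries (log2 -0.87, SE 0.44, edgeR adjusted p = 0.57). KRT10, the type I keratin of upper epidermal layers, had a log2 fold change of 0.01 (SE 0.36).

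KRT15 lies next to KRT19 on chromosome 17 (41513743 to 41522529 and 41523617 to 41528308). Of the 6 tested keratins of that type I cluster, 1 had a positive log2 fold change, and their median was -0.81. The 35 other tested genes within 500000 bases of the cluster had a median of -0.04. KRT32 and KRT37, hair keratins of the cluster, were called in neither direction at 1 to 22 counts per library. KRT37 (log2 -0.74) is a middle value of the keratin median, which thus rests in part on few counts.

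Of the keratins of basal and stratified epithelium, KRT15 and KRT10, given above, had at least 1 TPM in every library. Those that follow were at or near 0. KRT5, KRT6A, KRT6B, KRT6C, KRT14, KRT16 and KRT17 together had 18 and 4 counts in HER2 L755S 1 and 2 and 2 and 3 counts in HER2 WT 1 and 2. Of these, KRT16 had 11 and 2 counts in HER2 L755S and 0 in both HER2 WT libraries, and KRT17 had 5 counts in HER2 L755S 1 and 0 elsewhere. KRT2, an epidermal keratin, had 6 and 16 counts in HER2 L755S and 1 in each HER2 WT library. In all, 43 of the 55 keratin genes were not tested, with at most 16 counts in any library, and 19 of them had none.

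CLDN4, CLDN7 and CLDN3, the barrier claudins of glandular epithelium, held 94.8% and 89.3% of claudin TPM in HER2 L755S 1 and 2 and 94.2% and 88.8% in HER2 WT 1 and 2. CLDN4 had 157 and 87.9 TPM in HER2 L755S and 197 and 113 TPM in HER2 WT libraries (log2 -0.18, SE 0.35). CLDN7 had 141 and 60.9 TPM in HER2 L755S and 110 and 53.1 TPM in HER2 WT libraries (log2 0.47, SE 0.38, edgeR adjusted p = 0.88). For each of the 3 genes the libraries of number 2 were lower than those of number 1 in both lines. CLDN3 was the extreme case, at 81.4 and 25.1 TPM in HER2 L755S 1 and 2 and at 110 and 15.85 TPM in HER2 WT 1 and 2. Number 2 minus number 1 came to -1.35 on the log2 scale in HER2 L755S and -2.73 in HER2 WT cells, so its difference between the lines was -0.40 in pair 1 and 0.99 in pair 2. The log2 fold change over all libraries was -0.12 (SE 0.68, edgeR adjusted p = 1), and without HER2 WT 1 it was 1.81 (adjusted p = 0.041), the lowest adjusted p of the alternatives, which ran to 1. It was 0.39 without HER2 L755S 2, -0.95 without HER2 L755S 1 and -0.91 without HER2 WT 2.

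The other claudins were low. CLDN12, an atypical claudin, stood at 13.9 and 15.8 TPM in HER2 L755S and 15.4 and 17.45 TPM in HER2 WT libraries (log2 0.13, SE 0.33). CLDN15, a cation pore claudin of the gut, ranged from 1.45 to 3.68 TPM and CLDN9 from 0.92 to 2.58 TPM. CLDN23, at 0.65 to 1.67 TPM, lies on chromosome 8, whose 527 tested genes had a median of -0.38, and its pairs were -1.30 and 0.65. CLDN5, the claudin of endothelium, and CLDN1, that of epidermis, passed the filter through the HER2 WT libraries alone, with 7 and 3 counts in HER2 L755S, against 34 and 25 in HER2 WT libraries for CLDN5, and 3 and 2, against 18 and 10, for CLDN1. Their log2 fold changes of -2.38 and -2.26 (SE 0.71 and 0.84) were not called (edgeR adjusted p = 0.15 and 0.3). The 14 claudins not tested had at most 8 counts in any library.

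Desmosomes were represented by DSG2 and DSC2, the cadherin pair of simple epithelia. DSG2 stood at 5.92 and 6.01 TPM in HER2 L755S 1 and 2, against 10.1 and 20.1 TPM in HER2 WT 1 and 2. Both HER2 L755S libraries were lower, and the HER2 WT libraries differed from each other by more than HER2 WT 1 did from the HER2 L755S line. The log2 fold change was -1.15 (SE 0.40, pairs -0.73 and -1.41, edgeR adjusted p = 0.24), and without HER2 WT 1 it was -1.59 and called (adjusted p = 0.04), in a range from 0.0023 to 1. Without HER2 WT 2 it was -0.51 (adjusted p = 1). DSC2 had 10.01 and 9.12 TPM in HER2 L755S and 7.22 and 10.2 TPM in HER2 WT libraries (log2 0.32, SE 0.34). DSG1, DSG3, DSG4 and DSC1, the cadherins of stratified epithelium, had at most 4 counts in any library, and DSC3 had 4.05 and 7.14 counts in HER2 L755S, against 18.83 and 18.01 in HER2 WT libraries (edgeR adjusted p = 0.51).

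DSP, the linker from plaque to keratin, had 63.7 and 62.8 TPM in HER2 L755S and 75.5 and 128 TPM in HER2 WT libraries (log2 -0.55, SE 0.34, pairs -0.22 and -0.78, edgeR adjusted p = 0.75). In CPM the 2 lines of DSP overlapped. PKP3, a plakophilin of most desmosomes, had 73.55 and 37.9 TPM in HER2 L755S and 97.9 and 53.3 TPM in HER2 WT libraries (log2 -0.35, SE 0.37). It lies on chromosome 11, whose 865 tested genes had a median of -0.27. PKP4, an armadillo protein of several junctions, had 66.55 and 39.1 TPM in HER2 L755S, against 73.6 and 78.5 TPM in HER2 WT libraries (log2 -0.37, SE 0.31). PKP2, the plakophilin of heart and simple epithelia, had 2.67 and 1.84 TPM, against 3.99 and 5.57 TPM (log2 -0.77, SE 0.38, edgeR adjusted p = 0.56), and PKP1, that of epidermis, had no count. None of the 7 tested desmosome genes was called by edgeR, beside 1.69% of all tested genes. An unadjusted edgeR p under 0.05 was reached by 1 of the 7, beside 10.5% of all tested genes. DSC3 passed the filter through the HER2 WT line alone, which fixes its sign. Of the 6 others, 5 had a negative log2 fold change, beside 49.7% of all tested genes, and their median was -0.46.

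EPCAM stood at 343 and 396 TPM in HER2 L755S 1 and 2, against 298 and 331 TPM in HER2 WT 1 and 2. Both HER2 L755S libraries were higher, by 0.52 on the log2 scale (SE 0.33, pairs 0.23 and 0.72), and the test was not passed (edgeR adjusted p = 0.76).

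**Figure D4:**
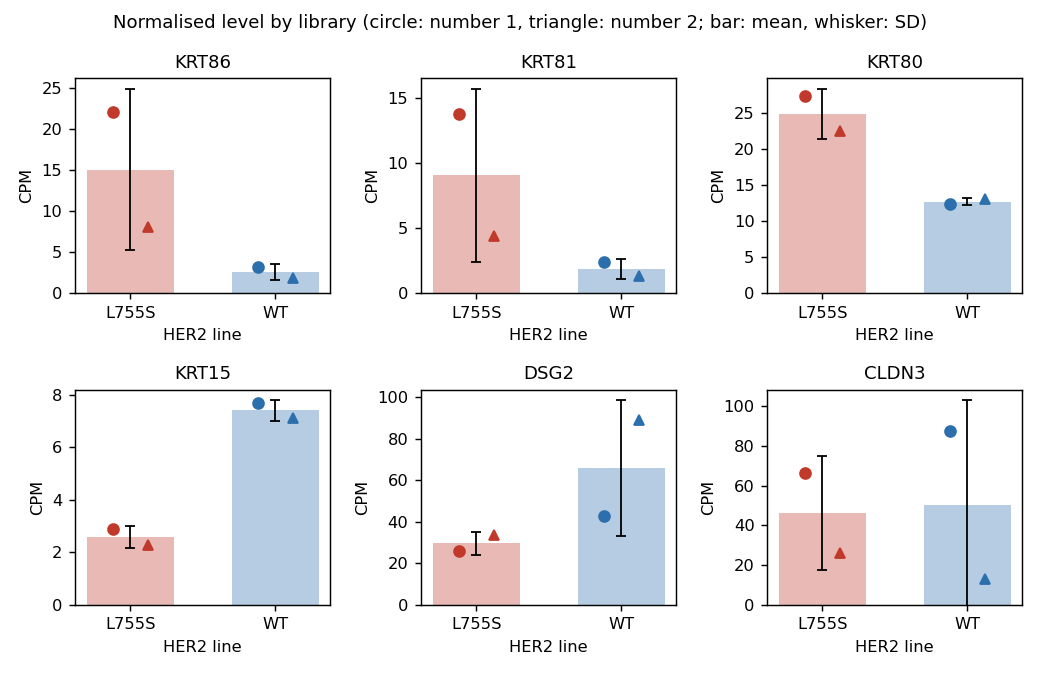
CPM by library for KRT86, KRT81, KRT80, KRT15, DSG2 and CLDN3 (bars are means of 2 libraries, whiskers SD, cut at 0 for CLDN3; circles number 1, triangles number 2). KRT86 and KRT81 are higher in HER2 L755S with HER2 L755S 1 at the top, KRT15 has tight groups, and CLDN3 follows the replicate number.

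Over all members, 30 of the 92 were tested and 62 were too low. Called were 1 higher and 0 lower in HER2 L755S cells, beside 0.738% higher and 0.949% lower of 16538 tested genes (edgeR, adjusted p under 0.05). CLDN5, CLDN1 and DSC3 passed the filter through the HER2 WT line alone, so they could only be lower in HER2 L755S cells, and the counts that follow are over the other 27. At an unadjusted p under 0.05 there were 5 members, 3 of them higher and the others lower, beside 10.5% of tested genes (4.08% higher and 6.46% lower). DESeq2 called 2 higher and 1 lower among the members, against 276 higher and 309 lower over all genes. The lines did not overlap for 5 members that were higher and 6 that were lower in HER2 L755S, beside 16.9% and 19.3%, or 36.2% either way, of tested genes. The median log2 fold change of the 27 was -0.12 (pairs -0.16 and 0.06), beside 0.0032 over all tested genes. By family the median was -0.74 over 7 type I keratins, 0.97 over 5 type II keratins and -0.08 over 8 claudins. The type I median is the value of KRT37, which had 1 to 11 counts per library. The 5 type I keratins of at least 1 TPM in every library ran from -1.52 (KRT15) to 0.01 (KRT10). Of the type II keratins, KRT86 and KRT81 share sequence. Between the numbers, 22 of all 30 tested members, with CLDN5, CLDN1 and DSC3 again included, moved the same way in both lines. Of the 22, 15 were lower and 7 higher in number 2. The share over all tested genes was not counted, but number 1 minus the line mean correlated between lines at r = 0.42 over them.

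**Figure D5:**
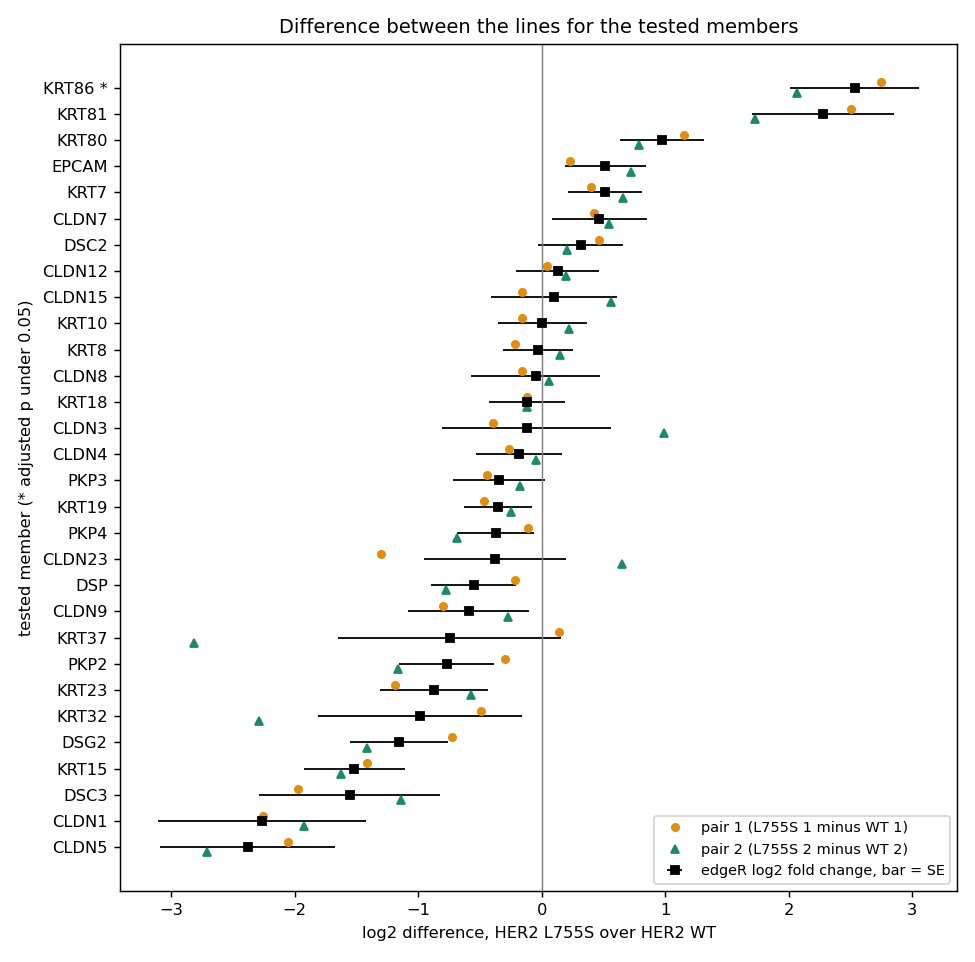
Log2 difference, HER2 L755S over HER2 WT, for the 30 tested members: black squares are the edgeR log2 fold change with its SE, orange circles pair 1 and green triangles pair 2. KRT86 at 2.54 is the called gene, and CLDN3 and CLDN23 are among the genes whose sign differs between the pairs.

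Outside the cornified envelope list, edgeR called 1 desmosome partner and 1 tight junction partner that are not members, beside 1.69% of all tested genes. At an unadjusted edgeR p under 0.05 were 3 of 11 desmosome and 3 of 18 tight junction partners, beside 10.5% of tested genes. These lists were drawn up with earlier results known, and CDSN, ABCA12 and CLCA2 were already among the reported genes, so their calls are no independent evidence. Of 11 tested desmosome and hemidesmosome partners 1 was called, CDSN, the corneodesmosin of epidermal junctions, at 217 and 81.9 TPM in HER2 L755S, against 7.84 and 2.28 TPM in HER2 WT libraries (log2 5.01, SE 0.60, edgeR adjusted p = 0.0033). JUP, TJP1 and OCLN were named after their values were seen. JUP, the plakoglobin gene, was not called at 530 and 223 TPM in HER2 L755S and 520 and 306 TPM in HER2 WT libraries (log2 0.01, SE 0.36). Of 18 tested tight junction partners 1 was called, CGNL1, which encodes the plaque protein paracingulin. It rose to 9.11 and 6.17 TPM in HER2 L755S, against 1.05 and 1.60 TPM in HER2 WT libraries (log2 2.68, SE 0.38, pairs 3.15 and 2.28, edgeR adjusted p = 0.0062). The scaffold gene TJP1 (log2 -1.44, SE 0.45, edgeR adjusted p = 0.17) and the strand protein gene OCLN (0.25) were not called.

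Of 8 tested cornified envelope and squamous genes, 4 were called, all higher, beside 0.738% called higher over all tested genes. The list was drawn up with earlier results known and holds the already reported ABCA12 and CLCA2. This share is therefore no independent evidence. TGM3, an epidermal transglutaminase, had 112 and 56.1 TPM in HER2 L755S, against 20.7 and 15.9 TPM in HER2 WT libraries (log2 2.34, SE 0.35, pairs 2.47 and 2.15, edgeR adjusted p = 0.0076). TGM5, a related enzyme, had 5.94 and 2.40 TPM, against 0.43 and 0.88 TPM (log2 2.88, SE 0.52, edgeR adjusted p = 0.02). ABCA12, a lipid transporter of keratinocytes, and CLCA2 had log2 fold changes of 5.49 and 5.95 (edgeR adjusted p = 0.0036 and 0.00036). With limma on log2(TPM + 1), ABCA12 and TGM5 missed the threshold (adjusted p = 0.051 and 0.061), the highest of their alternatives. IVL, LOR and all 6 SPRR genes of the list, which encode envelope precursors, were at 0 TPM in every library, among 12 of 23 listed genes at 0. CNFN, the cornifelin gene, was present without a call, at 37.4 and 19.3 TPM in HER2 L755S and 59.9 and 20.5 TPM in HER2 WT libraries (log2 -0.37, SE 0.49). TGM1, the main epidermal transglutaminase gene, ranged from 0.57 to 1.92 TPM.

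None of the 20 tested epithelial regulators was called by edgeR, while 5 had an unadjusted p under 0.05, beside 10.5% of all tested genes, and DESeq2 called 2. TFAP2A, an AP-2 factor, and TRPS1, a GATA-type repressor, had the highest levels, with log2 fold changes of 0.52 and -0.27 (SE 0.29 and 0.37). TP63, the master regulator of basal keratins, was at 0.17 and 0.15 TPM in HER2 L755S and 0.04 and 0.11 TPM in HER2 WT libraries. No gene was called by edgeR among 7 tested EPCAM partners, led by the protease inhibitor genes SPINT2 and SPINT1 (0.24 and -0.08), or among 8 other intermediate filament genes, led by the lamin genes LMNA and LMNB1 (-0.40 and 0.16). Of the EPCAM partners 0 and of the filament genes 1 had an unadjusted p under 0.05, and DESeq2 called none of either. The 11 luminal, 6 myoepithelial, 3 fibroblast and endothelial and 10 stress genes tested also had no edgeR call, with 3, 1, 0 and 1 at an unadjusted p under 0.05, and DESeq2 called 1 luminal gene among them. The lists' median log2 fold changes, beside 0.0032 over all tested genes, were -0.32 for desmosome partners and 0.02 for tight junction partners. They were 1.48 for cornified envelope genes, -0.10 for regulators, -0.08 for EPCAM partners and -0.30 for other filaments. The lists were drawn up with earlier results known, so these medians are no independent evidence. Markers of other cells were low: leukocyte markers summed to 0.89 and 0 TPM in HER2 L755S and 1.09 and 0.70 TPM in HER2 WT libraries, with PTPRC at most 0.01 TPM. Myoepithelial markers summed to 12.5 and 9.09 TPM, against 15.3 and 12.6 TPM, led by CDH3 and TAGLN, with ACTA2 at most 0.29 TPM. Fibroblast and endothelial markers summed to 37.7 and 14.9 TPM, against 32.9 and 19.1 TPM, nearly all of it COL1A1, with PECAM1 and CDH5 at 0. COL1A2 had 6 and 49 counts in HER2 L755S 1 and 2 and 0 and 45 in HER2 WT 1 and 2. COL3A1 had 0 and 32 counts in HER2 L755S and 1 and 53 in HER2 WT libraries. Both were higher in number 2 of each line, whereas COL1A1 was lower there, and the cause was not tested.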

How the data were processed

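Each library came as a deposited RSEM table, per the file headers, with an expected count per gene, which RSEM estimates and which can be fractional, and a TPM value, scaled by the authors for effective length and library total. STAR and edgeR, with the build GRCh38, are named in the submitters' processing notes. Their versions, the annotation release and the strand setting are not given in the sources used here. Between 9.53% and 11.5% of genes per library had a count that was not whole.

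Expected counts were rounded. Of 60675 genes, 16538 passed filterByExpr with the 2 groups, and libraries were scaled with TMM (factors 0.937 to 1.04). The lines were compared with the two-sided quasi-likelihood test of edgeR 4.0.16 in R 4.3.3, leaving the replicate number out. Benjamini-Hochberg adjustment covered all tested genes (threshold 0.05). SEs were derived from the fold change and its F statistic. CPM values use TMM-scaled totals, and pair differences are on log2 CPM (prior count 0.5). The test was tried on simulated counts.

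Alternatives were DESeq2 1.42.0 and its size factors, no scaling, limma 3.58.1 on log2(TPM + 1), 2 other filters, the replicate number as a block and leaving out each library. Dropping mitochondrial genes and summing KRT81, KRT83 and KRT86 were chosen after seeing the data. Members, related lists and tests were chosen with earlier results of these data known. The rule named members of at least 1 TPM in any library, up to 4 called genes of each related list and otherwise its 2 highest. Members below that level, JUP, TJP1, OCLN, TP63, ESR1, MUC1, CNFN, TGM1, CDH1 and single markers given at or near 0 were named after their values were seen. Gene positions are from GENCODE 29 (GRCh38), which held all 92 Ensembl identifiers.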

Additional observations from a re-analysis of the deposited data

How the results depend on the processing

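Calls among the members moved with the method while most directions held. Members called higher numbered 0 with no scaling or limma on log2(TPM + 1), 2 with DESeq2 or no filter, and 0 to 3 with a library left out, and members called lower numbered 1 with DESeq2 or no filter and 0 to 1 with a library left out. Over all genes, calls higher in HER2 L755S cells numbered 276 (DESeq2), 63 (limma) and 328 (no filter), and calls lower 309 (DESeq2) and 431 (no filter), with 160 to 220 higher and 184 to 328 lower with a library left out. Related lists differed as follows: cornified envelope genes had 2 calls with limma, regulators 2 with DESeq2 or no filter and 0 to 1 with a library left out, luminal markers 1 with DESeq2, 2 with no filter and 1 with any library left out, fibroblast and endothelial markers 0 to 1, and stress genes 1 with no filter and 1 to 3 with a library left out. The cause of these changes was not tested.

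The lines share replicate numbers, and number 1 minus the line mean correlated between lines at r = 0.42 over 16538 genes, but the labels do not say what a number marks and there are only 2 pairs. With the replicate block 725 genes were called higher and 1018 lower. Among the members 3 were called higher (KRT86, KRT81 and KRT80) and 3 lower (KRT15, DSG2 and CLDN5). Of these, CLDN5 passed the filter through the HER2 WT line alone, so it could only be lower. The block also called 3 desmosome partners, 3 tight junction partners, 4 regulators, 2 other filament genes, 2 luminal, 1 myoepithelial and 3 stress genes.

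Of the tested members 11 changed sign under at least 1 alternative. CLDN3 was 0.10 with limma and 0.27 with the block, CLDN12 -0.13 with limma, and KRT10 -0.066 with no scaling, -0.14 with limma and -0.015 at 50 counts or more. With a library left out, log2 fold changes ran from -0.15 to 0.080 for KRT8, -0.32 to 0.087 for KRT18, -0.49 to 0.23 for CLDN4, -0.71 to 0.16 for PKP3, -0.95 to 1.81 for CLDN3, -0.10 to 0.32 for CLDN12, -0.26 to 0.35 for KRT10, -0.37 to 0.81 for CLDN15, -0.87 to 0.28 for CLDN23, -0.17 to 0.065 for CLDN8 and -3.07 to 0.063 for KRT37. Of the 62 members that were not tested, 27 had no count in any library, and whether more depth would bring the others to the filter was not tested.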
